A study of Homo sapiens with 4 samples.

Results

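Heat shock proteins and their J-domain partners, encoded by the HSPA, HSPB, HSPD, HSPE, HSPH, HSP90 and DNAJA, DNAJB and DNAJC genes, were followed in lung cancer cells that carried a mutant histone H2B or an empty vector. The members were the probe sets whose single gene symbol starts with 1 of these stems and a digit, or with HSP90. The rule took 68 of 17687 genes with a single symbol, each by 1 of 21448 probe sets. They comprised 10 HSP70 genes, 3 HSP110 genes, 2 HSP90 genes, 2 chaperonin genes, 6 small heat shock genes, 43 J-protein genes (4 DNAJA, 12 DNAJB and 27 DNAJC) and 2 read-through transcripts. Of 73 protein-coding human genes whose RefSeq symbols fit the rule, 68 were measured, and HSPA8, HSPA1B, HSP90B1, HSPB2 and DNAJC5 were not analysed here.

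The cells were A549, an established human line from a lung adenocarcinoma. All 4 samples carried a short hairpin RNA against LDOC1, a small leucine zipper gene, and were kept under puromycin. In 2 samples the cells also expressed H2BK120R, an H2B in which the lysine that accepts monoubiquitin is replaced by arginine, and in the other 2 they carried the corresponding vector. According to the design text, depletion of LDOC1 raised monoubiquitylated H2B and the mutant lowered it, so the comparison asks which transcripts differ once the mark is reduced in depleted cells. No sample expressed an unmutated H2B construct, so the mutation and the addition of a histone cannot be told apart. The labels do not say whether the lines were pools or single clones.

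HSP70 proteins bind exposed hydrophobic stretches of other proteins in a cycle driven by ATP. J proteins bring them their clients and trigger ATP hydrolysis, and HSP110 proteins help to release the nucleotide. HSP90 acts later, on clients such as kinases and steroid receptors, HSP60 and HSP10 fold proteins inside mitochondria, and small heat shock proteins hold unfolded proteins without using ATP. Under stress, heat shock factor HSF1 raises many of these genes through heat shock elements in their promoters, while the unfolded protein response raises those of the endoplasmic reticulum. Tumour cells often keep several of them at high levels.

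Total RNA was measured on a whole-transcript array as log2 levels, with array medians between 6.40 and 6.43 and correlations of 0.990 to 0.994 between arrays, lowest on average for vector replicate 1. LDOC1 was at 8.37 and 8.66 with H2BK120R and at 8.0 and 8.33 with the vector. Both groups carry the hairpin, so these values do not measure the depletion. Of 7 markers of A549 epithelium 5 lay above the median level of all probe sets, and EPCAM and MUC1 lay below it. Above that median were 2 of 7 markers of alveolar type II cells, 1 of 6 of fibroblasts, 0 of 6 of leukocytes and 0 of 5 of endothelium. Levels of different probe sets are not comparable in amount. The labels do not say that replicates were separate cultures, so the p-values rest on a spread that may be technical. In such bulk RNA, fewer cells of a kind and less RNA per cell cannot be told apart.

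The chaperone genes did not move as a group. With H2BK120R 32 members were higher, 35 lower and 1 equal, and the median difference was -0.01 on the log2 scale, beside 0 over all probe sets. In limma 0 of the 68 passed a Benjamini-Hochberg adjusted p of 0.05, and the percentage over all 21448 probe sets was also 0. The smallest adjusted p of a member was 0.722. Without adjustment, 6 members (8.82%) had a p under 0.05, against 6.70% of all probe sets. They were 3 higher and 3 lower, where 3.62% and 3.08% of all probe sets had such a p in those directions. Leaving out vector replicate 2 gave 11 such members, leaving out vector replicate 1 gave 2, and leaving out H2BK120R replicate 1 or replicate 2 gave 3 or 2. Both arrays of one group lay beyond both of the other for 26 members (38.2%), near the background of 36.5%. In 12 of them the mutant was higher and in 14 lower, beside 18.6% and 17.9% of all probe sets. For any one gene, the smallest two-sided p of an exact permutation test over these arrays is 0.333.

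The precision limits what these arrays could show. The median standard error of the members was 0.21, below the 0.28 of all probe sets, and 51 of the 68 lay above the median level. For 20 members the 95% confidence interval of the difference lay inside 0.5 on the log2 scale in either direction, and for 57 inside 1. HSPA9, HSPB1, HSPH1, HSPA5 and HSP90AB1 were among the 20. The intervals are limma's for each gene and are not widened for the number of genes. They rest on the spread between arrays, and if that spread is technical they do not bound a difference between separate cultures.

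**Figure D1:**
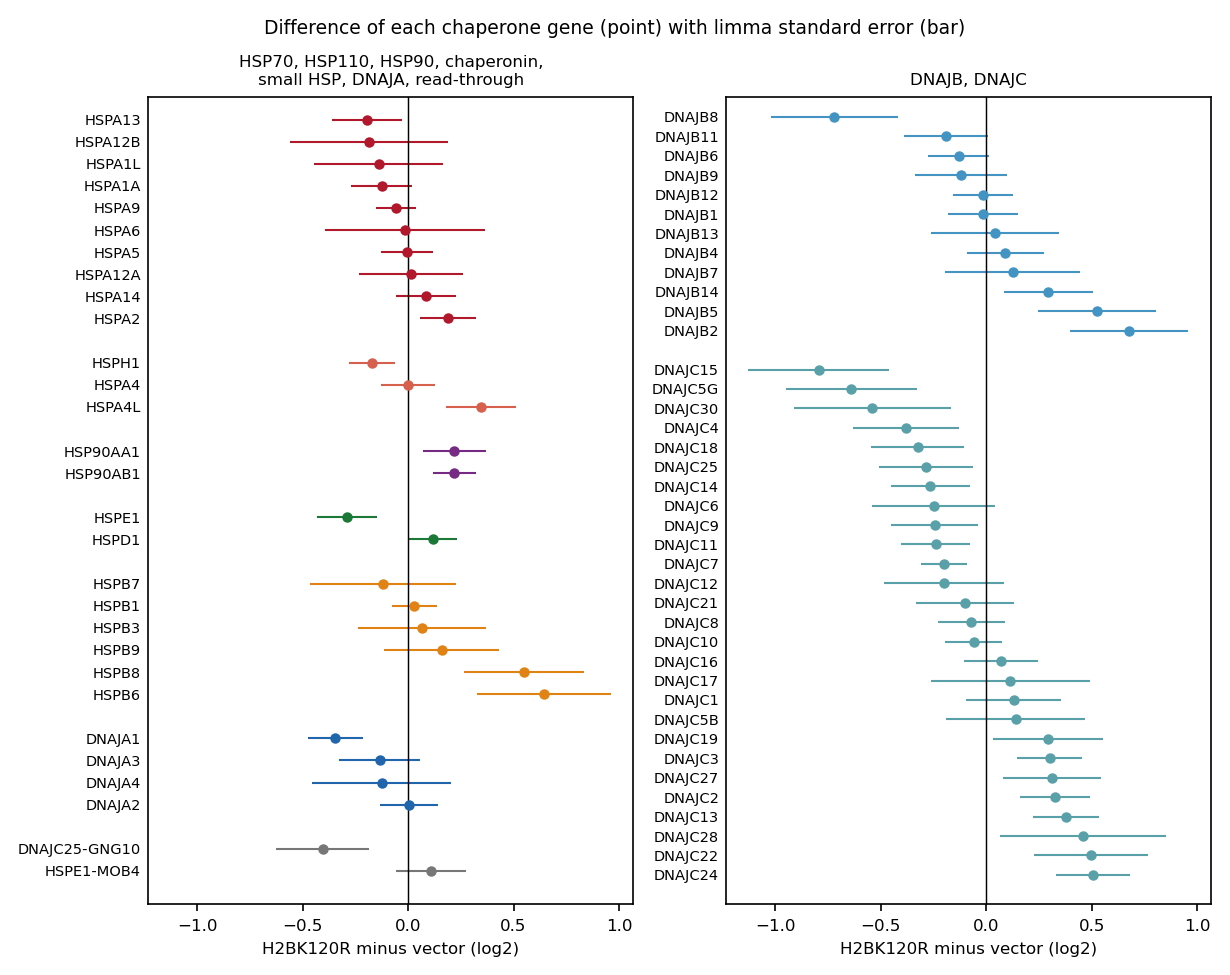
Difference between H2BK120R and vector on the log2 scale for each of the 68 genes (points) with limma's standard error (bars), grouped and coloured by class. Most HSP70 genes sit near 0, between -0.20 and 0.19, and DNAJB and DNAJC genes spread from -0.795 to 0.675.

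The HSP70 genes varied little. Of 10, 7 were lower and 3 higher, with a median difference of -0.035 and a range from -0.195 (HSPA13) to 0.19 (HSPA2). HSPA9, the mitochondrial HSP70, was at 15.78 and 15.83 with H2BK120R and at 15.88 and 15.84 with the vector. It was the 1 of 10 HSP70 genes (10.0%) whose groups did not overlap, beside 36.5% of all probe sets. The nearest arrays were apart only in the last decimal. The HSPA9 difference of -0.055 ± 0.095 (SE) had an interval from -0.26 to 0.15. HSPA5, the HSP70 of the endoplasmic reticulum and a standard readout of the unfolded protein response, was at 14.49 and 14.48 with the mutant and at 14.35 and 14.63 with the vector. The vector arrays lay on either side of the mutant ones, and the interval ran from -0.27 to 0.26. HSPA1A, the classical stress-induced cytosolic HSP70, was at 11.97 and 12.02 with H2BK120R and at 11.99 and 12.25 with the vector. The groups overlapped, with a difference of -0.125 ± 0.144 that became 0.005 without vector replicate 2. HSPA1A and its neighbour HSPA1B encode the same protein, so this probe set may read both.

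Among the other HSP70 genes, HSPA2, which is abundant in testis and also found in tumours, differed by 0.19 ± 0.13. The ribosome-associated HSPA14 differed by 0.085 ± 0.144 and HSPA13, a microsomal member, by -0.195 ± 0.167. The divergent genes HSPA12A and HSPA12B differed by 0.015 ± 0.246 and -0.185 ± 0.373. HSPA1L, a testis member that lies next to HSPA1A, differed by -0.14 ± 0.30. HSPA6, a strictly stress-induced gene, was at 4.88 and 4.67 with the mutant and at 4.26 and 5.32 with the vector. Its signal lay below the median level on every array, and the vector arrays differed from each other by more than the groups did.

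The HSP110 genes, which act as exchange factors for HSP70, went 3 ways. HSPA4L was at 11.82 and 12.17 with H2BK120R and at 11.52 and 11.78 with the vector, a difference of 0.345 ± 0.165 (limma adjusted p = 0.745). Both mutant arrays were higher, by little between the nearest pair, and leaving out H2BK120R replicate 2 gave 0.17, leaving out its replicate 1 gave 0.52. HSPH1 was at 14.20 and 14.23 against 14.42 and 14.35, a difference of -0.17 ± 0.11 (adjusted p = 0.784), with both mutant arrays lower. HSPA4 had the same mean of 13.18 in both groups, with an interval from -0.28 to 0.28.

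Both measured genes with an HSP90 symbol were higher with the mutant by 0.22, and neither passed the test. HSP90AB1, the constitutive cytosolic isoform, was at 16.00 and 16.14 with H2BK120R and at 15.77 and 15.93 with the vector. The groups did not overlap, and the difference of 0.22 ± 0.10 (SE) had an interval from -0.008 to 0.45 and a limma adjusted p of 0.745. It was 0.14 without vector replicate 1. HSP90AA1, the stress-induced cytosolic isoform, was at 15.76 and 15.92 with the mutant and at 15.36 and 15.88 with the vector. Its groups overlapped, because only vector replicate 1 was low. Without that array the difference was -0.04 in place of 0.22, and the class median was 0.05.

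The chaperonin partners HSP60 and HSP10 differed in opposite directions, although their genes lie head to head. HSPE1, which encodes HSP10, was at 11.61 and 11.75 with H2BK120R and at 11.91 and 12.03 with the vector. Both mutant arrays were lower, with a difference of -0.29 ± 0.14 and a limma adjusted p of 0.746. HSPD1, which encodes HSP60, was at 15.03 and 14.93 with the mutant and at 14.97 and 14.75 with the vector. These groups overlapped, and the difference was 0.12 ± 0.11 (adjusted p = 0.856). The intervals of the pair, -0.60 to 0.02 and -0.13 to 0.37, overlap, and the difference between them was not tested. The read-through transcript HSPE1-MOB4, which starts at the same site as HSPE1 in RefSeq, differed by 0.11 ± 0.17, so signal from shared exons cannot be assigned to one of them.

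Small heat shock genes were higher for 5 of 6, with a median of 0.11 and none past the adjusted threshold. HSPB1, which encodes HSP27 and is the best known member in epithelial cells, was at 14.76 and 14.80 with H2BK120R and at 14.69 and 14.81 with the vector. Its difference of 0.03 ± 0.11 had an interval from -0.20 to 0.26. HSPB8, which works with BAG3 in the removal of misfolded proteins, was at 7.17 and 7.40 against 6.44 and 7.03. Both mutant arrays were higher, with a difference of 0.55 ± 0.28 (limma adjusted p = 0.761) that was 0.255 without vector replicate 1. HSPB6, known from muscle, was at 5.87 and 5.45 with the mutant and at 5.21 and 4.82 with the vector, a difference of 0.645 ± 0.318 (adjusted p = 0.746). The groups did not overlap, and the signal lay below the median level. HSPB3, HSPB7 and HSPB9, which are best known from muscle, heart and testis, also lay below it and differed by 0.065, -0.12 and 0.16, each less than its standard error.

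**Figure D2:**
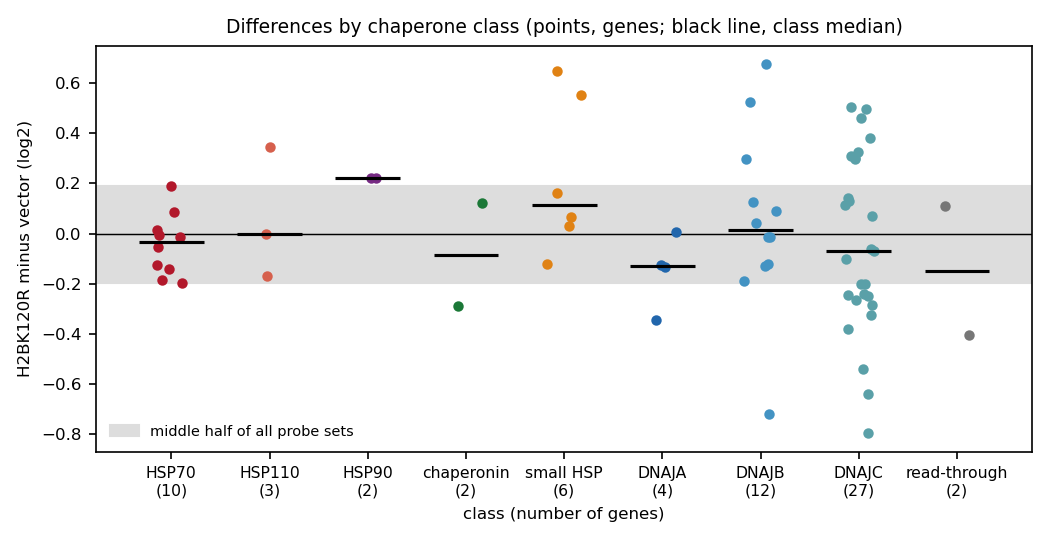
Difference between H2BK120R and vector (log2) for each gene (points) by class, with the class median (black line) and the range between the quartiles of all probe sets (grey band, -0.195 to 0.19). All 10 HSP70 genes lie inside or at the edge of the band, and the wider spread is in small HSP, DNAJB and DNAJC genes.

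The J-protein genes, 43 of the 68 members, were lower for 24 and higher for 19, with a median of -0.06. All 6 members with an unadjusted p under 0.05 were among them, beside 6.70% of all probe sets. For 18 (41.9%) the groups did not overlap, 7 higher and 11 lower, beside 36.5% of all probe sets. The class medians were -0.13 for DNAJA, 0.0125 for DNAJB and -0.07 for DNAJC. In DNAJC the groups did not overlap for 14 of 27 genes, 5 higher and 9 lower, beside 18.6% and 17.9% of all probe sets. Whether this share differs from that of all probe sets or of the other classes was not tested.

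The DNAJA genes encode the J proteins closest to the bacterial prototype. DNAJA1, a main cytosolic partner of HSP70, was at 12.89 and 12.83 with H2BK120R and at 13.10 and 13.31 with the vector. Both mutant arrays were lower, and the difference of -0.345 ± 0.129 had an interval from -0.63 to -0.06, an unadjusted p of 0.022 and a limma adjusted p of 0.738. DNAJA2, its close cytosolic relative, differed by 0.005 ± 0.136, with an interval from -0.29 to 0.30. The mitochondrial DNAJA3 differed by -0.135 ± 0.190 and DNAJA4 by -0.125 ± 0.329.

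Among DNAJB genes, DNAJB1, the stress-induced partner of HSP70 in the cytosol, was at 13.24 and 12.85 with H2BK120R and at 13.25 and 12.87 with the vector. The spread between replicates was far larger than the difference of -0.015 ± 0.167. DNAJB2, which holds ubiquitin-binding motifs and is abundant in neurons, was at 7.77 and 7.71 with the mutant and at 7.41 and 6.72 with the vector. Both mutant arrays were higher, with a difference of 0.675 ± 0.279 (limma adjusted p = 0.745) that was 0.33 without vector replicate 2. DNAJB8, a testis gene, was at 2.10 and 2.11 against 3.17 and 2.48, a difference of -0.72 ± 0.30 (adjusted p = 0.745) that was -0.375 without vector replicate 1 and -1.065 without vector replicate 2. These are among the dimmest values on the arrays, where the lowest was 1.56.

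The remaining DNAJB genes stayed within 2 standard errors of 0. DNAJB5 differed by 0.525 ± 0.278, with groups that did not overlap, and DNAJB14, anchored in the membrane of the endoplasmic reticulum, by 0.295 ± 0.210. DNAJB6, a suppressor of protein aggregation, differed by -0.13 ± 0.15 and DNAJB4 by 0.09 ± 0.18. DNAJB9 and DNAJB11, partners of HSPA5 that are raised by the unfolded protein response, differed by -0.12 ± 0.22 and -0.19 ± 0.20. DNAJB12, DNAJB7 and DNAJB13 differed by -0.015, 0.125 and 0.04.

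The DNAJC genes share little outside the J domain. DNAJC24, which takes part in making diphthamide on elongation factor 2, had the smallest p of all members. It was at 10.01 and 10.20 with H2BK120R and at 9.55 and 9.65 with the vector. Both mutant arrays were higher, with a difference of 0.505 ± 0.176, an interval from 0.12 to 0.89, an unadjusted p of 0.015 and a limma adjusted p of 0.722. With 1 array left out it stayed between 0.41 and 0.60. DNAJC13, an endosomal protein, was at 11.50 and 11.81 with the mutant and at 11.29 and 11.26 with the vector, a difference of 0.38 ± 0.16 (adjusted p = 0.745) with no overlap. It was 0.225 without H2BK120R replicate 2. DNAJC15, of the inner mitochondrial membrane, was at 3.67 and 3.95 against 4.92 and 4.29. Its mutant arrays were both lower, and the difference of -0.795 ± 0.332 (adjusted p = 0.745), the most negative of all members, came from a probe set below the median level and was -0.48 without vector replicate 1.

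Further DNAJC genes had an unadjusted p above 0.05. DNAJC2, which sits on ribosomes and also binds chromatin with ubiquitylated H2A, was at 10.64 and 10.79 with H2BK120R and at 10.28 and 10.50 with the vector. All mutant values were above the vector ones, with a difference of 0.325 ± 0.166 (limma adjusted p = 0.760). DNAJC3, a luminal co-chaperone of the endoplasmic reticulum, differed by 0.30 ± 0.15 and DNAJC7, which binds HSP70 and HSP90, by -0.20 ± 0.11, neither with overlap between the groups. DNAJC5G, a testis relative of the synaptic vesicle protein DNAJC5, was at 3.67 and 3.83 against 4.59 and 4.19, a difference of -0.64 ± 0.31 (adjusted p = 0.746) at a dim signal. DNAJC22 differed by 0.495 ± 0.270 and was low in vector replicate 1, without which the difference was 0.07.

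**Figure D3:**
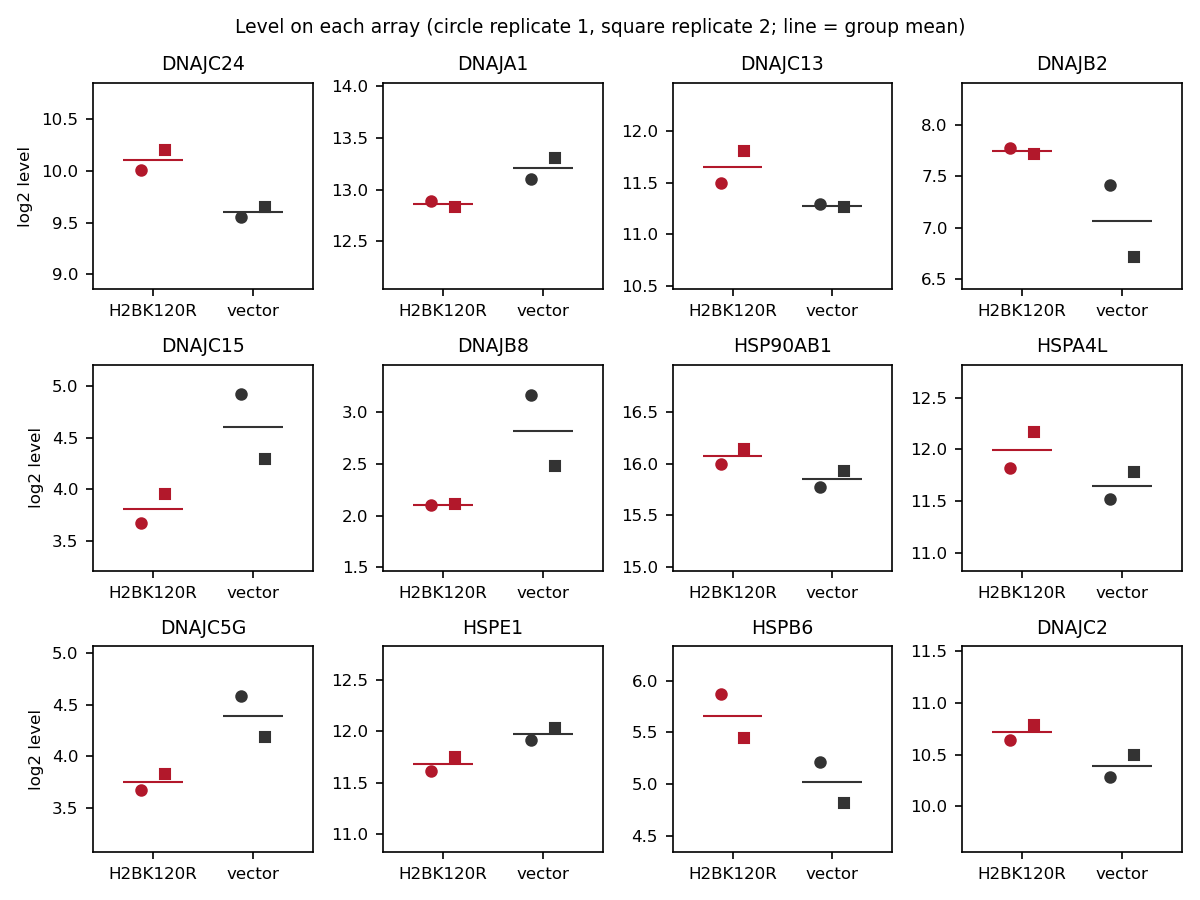
Log2 level on each array for the 12 genes with the smallest unadjusted p, H2BK120R in red and vector in black, circles for replicate 1, squares for replicate 2 and lines for group means. Each panel spans 2 log2 units around its own mean, and in all 12 the groups do not overlap, as the choice by p makes likely.

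By compartment, the mitochondrial list was lower for 6 of 9 genes, with a median of -0.135. None passed the adjusted threshold, and 1 (11.1%), DNAJC15, had an unadjusted limma p under 0.05, beside 6.70% of all probe sets. The groups did not overlap for 4 of them (44.4%), beside 36.5% of all probe sets. All 4 were lower, namely HSPA9, HSPE1, DNAJC11 and DNAJC15. Of all probe sets, 17.9% were lower and 18.6% higher without overlap. DNAJC11, an outer membrane protein linked to cristae, differed by -0.24 ± 0.16. DNAJC30 and DNAJC28 differed by -0.54 ± 0.37 and 0.46 ± 0.39, and DNAJC19, of the protein import motor, by 0.295 ± 0.261. The list was averaged per array as deviations from each gene's mean, which were -0.043 and -0.088 with H2BK120R and 0.110 and 0.021 with the vector. Over all 68 members the same averages were -0.009 and 0.008 with H2BK120R and 0.005 and -0.004 with the vector. Those of the list for the endoplasmic reticulum also overlapped between the groups. By class, the averages of HSP70, HSP110, HSP90 and DNAJB overlapped as well. Those of the small heat shock genes, the chaperonin pair, DNAJA and DNAJC did not. The testis-enriched list, given below, did not overlap either, so such separation was not particular to the mitochondrial list. Whether the lists differ was not tested.

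The list for the endoplasmic reticulum had 8 of 12 genes lower and 4 higher, with a median of -0.0375. Besides HSPA5, HSPA13 and the genes above, DNAJC10, which reduces disulfides, differed by -0.06 ± 0.14. DNAJC1, DNAJC16, DNAJC18 and DNAJC25 differed by 0.13, 0.07, -0.325 and -0.285. DNAJC25-GNG10, a read-through of DNAJC25 and the next gene, differed by -0.405 ± 0.222 and may share signal with DNAJC25. The 5 J proteins of RNA and chromatin had a median of -0.07. DNAJC9, a chaperone of histones H3 and H4, differed by -0.245 ± 0.207, with no overlap. DNAJC8 and DNAJC17, linked to splicing, and DNAJC21, of ribosome assembly, differed by -0.07, 0.115 and -0.10. The clathrin uncoating gene DNAJC6 differed by -0.25 ± 0.29. Of 8 testis-enriched genes 5 gave higher values and 3 lower ones, the median being 0.0825 and only HSPA2 above the median level of all probe sets. That list includes DNAJC5B, which differed by 0.14 ± 0.33. DNAJC4, DNAJC12, DNAJC14 and DNAJC27 belong to none of these lists and differed by -0.38, -0.20, -0.265 and 0.31, (named here after their values were seen, to complete the class).

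The genes that HSF1 is known to induce went in both directions. Among 9 measured, 4 gave higher values and 5 lower ones (median -0.015). None passed the adjusted threshold, and 1 (11.1%), DNAJA1, had an unadjusted limma p under 0.05, beside 6.70% of all probe sets. HSP90AB1 and HSPA4L were higher and DNAJA1 and HSPH1 lower without overlap, 4 of 9 (44.4%) beside 36.5% of all probe sets. HSF1 itself was at 11.73 and 11.54 with H2BK120R and at 11.61 and 11.78 with the vector, a difference of -0.06 ± 0.15 with overlapping groups. HSBP1, which binds the factor, differed by -0.12 ± 0.17. Of 4 measured heat shock factors and binders 3 gave lower values and 1 a higher one, the median being -0.09 and 0 past the adjusted threshold, the others being HSF5 at -0.485 ± 0.355 and HSBP1L1 at 0.15 ± 0.22.

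Promoter sequence was set beside these values because a heat shock element is the usual route to joint induction. Windows of 300 bases around RefSeq start sites on GRCh38.p14, from 250 before to 50 after, were found for 62 of the 68 members. An element is made of GAA units in alternating orientation, so both orders GAANNTTC and TTCNNGAA were searched, which covers both strands. This core of 2 units was found in 20 of 62 members (32.3%), against 16.2% of 27305 genes with a window. An element of 3 units in a row, each of which also counts as a core, was found in 6 members (9.68%), against 0.608% of genes. They were HSPA6, HSP90AA1, HSP90AB1, HSPD1, DNAJA1 and DNAJB6. A match is a run of letters and not a shown binding site. Only exact units inside the windows were searched, so a gene without a match may still hold an imperfect or more distant element.

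The stretches that hold the 3 units are given with the element in capitals, since their genes differed in both directions. They lie at chr1:161524426-161524518 on the plus strand for HSPA6, chr14:102087080-102087172 on the minus strand for HSP90AA1 and chr6:44247738-44247883 on the plus strand for HSP90AB1. Those of HSPD1, DNAJA1 and DNAJB6 lie at chr2:197500028-197500090 (minus), chr9:33025236-33025322 (plus) and chr7:157336833-157336925 (plus).
HSPA6: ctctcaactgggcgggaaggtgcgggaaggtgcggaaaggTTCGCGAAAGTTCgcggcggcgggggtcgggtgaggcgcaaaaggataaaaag
HSP90AA1: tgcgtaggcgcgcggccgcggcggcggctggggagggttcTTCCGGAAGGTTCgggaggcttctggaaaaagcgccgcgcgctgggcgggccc
HSP90AB1: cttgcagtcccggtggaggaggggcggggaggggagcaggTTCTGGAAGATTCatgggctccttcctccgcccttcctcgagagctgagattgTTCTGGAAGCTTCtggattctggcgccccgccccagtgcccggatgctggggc
HSPD1: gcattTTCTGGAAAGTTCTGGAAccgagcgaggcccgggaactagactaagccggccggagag
DNAJA1: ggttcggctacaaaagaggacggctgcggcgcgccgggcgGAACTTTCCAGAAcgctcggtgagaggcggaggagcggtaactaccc
DNAJB6: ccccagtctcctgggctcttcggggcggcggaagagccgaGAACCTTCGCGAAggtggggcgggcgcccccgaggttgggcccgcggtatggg

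The 6 genes with these stretches did not move together. HSP90AA1 and HSP90AB1 differed by 0.22 each and HSPD1 by 0.12, while HSPA6, DNAJB6 and DNAJA1 differed by -0.015, -0.13 and -0.345. Their median was 0.0525, against -0.035 for the 56 members with a window and no such element. Of the 14 members with 2 units only, 7 were higher and 7 lower, among them HSPA1A, HSPB1, HSPB8, DNAJB1 and DNAJC15. HSP90AB1, which holds 2 separate elements, and DNAJA1, whose element lies just past the start site, went in opposite directions. They were the 2 of the 6 whose groups did not overlap, beside 36.5% of all probe sets. The element listed for HSPD1 lies in the window of its second, internal start site, and the window of HSPE1 at chr2:197500129-197500428, on the opposite strand, holds no core. The HSPD1 stretch, at chr2:197500028-197500090, lies just upstream of the HSPE1 window. The lack of a core there thus depends on where the window ends.

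**Figure D4:**
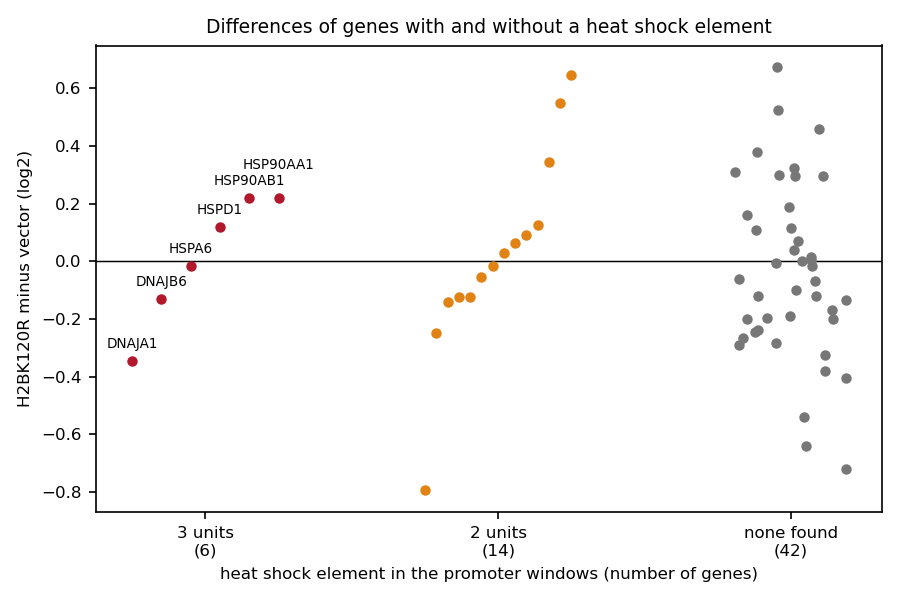
Difference between H2BK120R and vector (log2) for members whose promoter windows hold an element of 3 units (6 genes, named), a core of 2 units only (14 genes) or neither (42 genes). Points of all 3 groups lie on either side of 0.

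For the unfolded protein response the search took CCAAT and CCACG with 9 bases between them, on both strands, the ER stress element. It was found in 1 member, HSPA5, against 0.0916% of genes with a window, at chr9:125241351-125241449 on the minus strand, and the stretch is shown because HSPA5 is the readout of that response.
HSPA5: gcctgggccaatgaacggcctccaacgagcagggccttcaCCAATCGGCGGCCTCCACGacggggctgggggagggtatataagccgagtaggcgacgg

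HSPA5, as given above, differed by -0.005 ± 0.121. Among 19 other ER stress genes, 14 gave higher values and 5 lower ones (median 0.08), and 0 passed the test. HERPUD1, of the degradation machinery, differed by -0.325 ± 0.156 and EIF2AK3, the sensor kinase PERK, by -0.485 ± 0.268, both without overlap. DERL1, a channel protein for degradation, and the disulfide isomerase PDIA3 differed by 0.26 ± 0.13 and 0.155 ± 0.106, also without overlap. In all, the groups did not overlap for 6 of the 19 (31.6%), beside 36.5% of all probe sets.

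Partners of HSP70 and HSP90 were measured as well. Among 18 measured genes listed as co-chaperones of HSP70 or of other chaperones, 8 gave higher values and 10 lower ones (median -0.0125). Of these, 0 passed the adjusted threshold. An unadjusted limma p under 0.05 was found for 2 (11.1%), beside 6.70% of all probe sets. The groups did not overlap for 6 (33.3%), beside 36.5% of all probe sets. BAG2, which inhibits the ubiquitin ligase CHIP, was at 12.35 and 12.33 with H2BK120R and at 11.85 and 12.04 with the vector. STUB1, which encodes CHIP, was at 9.13 and 8.87 with the mutant and at 9.62 and 9.42 with the vector. These 2 lay apart between the groups in opposite directions, by 0.395 ± 0.137 (limma adjusted p = 0.722) and -0.52 ± 0.20 (adjusted p = 0.739). HSPBAP1, a partner of the small heat shock protein HSPB1 that this list also holds, differed by -0.64 ± 0.29. BAG6, a nuclear and cytosolic quality control factor, differed by -0.22 ± 0.11.

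Among 9 measured co-chaperones and relatives of HSP90, 5 gave higher values and 4 lower ones (median 0.04), and 0 passed the adjusted threshold. They include TRAP1, the mitochondrial HSP90, which is outside the symbol rule. TRAP1 differed by -0.045 ± 0.165, with overlapping groups. SUGT1, an adaptor of HSP90, differed by 0.485 ± 0.221 (limma adjusted p = 0.745), FKBP4, an immunophilin of steroid receptor complexes, by 0.215 ± 0.118, UNC45A, a myosin chaperone, by -0.255 ± 0.184 and PPID by -0.265 ± 0.179. The small heat shock relatives CRYAA and CRYAB, outside the symbol rule, lay below the median level and differed by 0.35 ± 0.31 and 0.085 ± 0.403.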

How the data were processed

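The table deposited by the authors holds 1 log2 level per probe set and array for 4 arrays, already normalized between arrays. The log2 scale was inferred from the values, 1.56 to 19.15. Per the submitters' processing notes MAS5 was used, with no version, and the sources used here do not give the background correction, the probe summary or detection calls. The platform annotation named 17709 of 21448 probe sets. All 68 members matched RefSeq by gene ID, and none had several probe sets.

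The 2 groups were set against each other in limma 3.58.1 under R 4.3.3, by lmFit and then eBayes with a trend of variance on level. Tests were two-sided and adjusted after Benjamini and Hochberg across the whole table. The fit, with 2 residual and 8.95 prior degrees of freedom, was also run on simulated data as a self-test. The simulated arrays were independent, so the self-test cannot show how the fit behaves when replicates share a culture. Errors of differences are standard errors. Lists are described by counts and medians. Members, lists and elements were chosen with earlier results of these data known. Named were all heat shock members, the 8 J-protein genes per class with the smallest p, compartment lists and up to 4 genes per partner list. TRAP1 was named in addition, as a relative of HSP90. No protein sequences were used here, and promoters came from RefSeq (GRCh38.p14). For arrays, their number limits the precision. Python 3.11.15 with matplotlib 3.10.9 drew the figures.

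The values were also recomputed after quantile normalization or with array medians made equal, without the dimmest 25% or 50%, with a replicate block, without each array in turn, among named probe sets alone, without the variance trend, with robust variance estimates and without read-through transcripts.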

Additional observations from a re-analysis of the deposited data

How the results depend on the processing

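Under every setting run, 0 members passed an adjusted p of 0.05. Members with an unadjusted p under 0.05 numbered 6, against 8 after quantile normalization, 5 and 4 without the dimmest 25% and 50% of probe sets, 11 with the replicate number as a block and 2 to 11 with 1 array left out. The labels tie the numbers to no shared culture, so the numbers were not taken as pairs. The deviations of same-numbered arrays correlated at 0.14 over all probe sets, which cannot show whether they were paired. With quantile normalization the medians were -0.116 for the chaperonin pair, 0.1525 for small heat shock genes and -0.102 for DNAJC, and HSPB1 differed by -0.0125. Without the dimmest 25% or 50% of probe sets, which leaves fewer members, the small heat shock median was 0.29. At the 50% cut only 2 small heat shock genes remain, HSPB1 at 0.03 and HSPB8 at 0.55, and 0.29 is their midpoint. With 1 array left out, the medians ran from -0.11 to 0.055 for HSP70, -0.10 to 0.10 for HSP110, 0.115 to 0.2175 for small heat shock genes, -0.32 to -0.01 for DNAJA, -0.16 to 0.105 for DNAJB and -0.15 to -0.005 for DNAJC. The differences then ran from -0.255 to 0.005 for HSPA1A, -0.145 to 0.135 for HSPA5, -0.04 to 0.48 for HSP90AA1, -0.03 to 0.09 for HSPB1 and -0.21 to 0.18 for DNAJB1. Of the 68 members 29 changed sign in at least 1 such fit and 39 in none. The 39 include HSPA4, whose difference over all arrays was 0 and so had no sign to change, and which ran from -0.10 to 0.10. These fits take the remaining single array to have the spread of the other group. What causes the changes was not tested. Overlap of groups was not counted with 1 array left out, and since no member had several probe sets their mean was not run.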

Other observations

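Most members differed more between the 2 arrays of at least 1 group than between the group means. They include DNAJB2, HSPB8 and HSPA4L, whose groups did not overlap, and the genes given here are examples. DNAJC30 was at 6.47 and 7.76 with H2BK120R and at 7.85 and 7.46 with the vector. DNAJC28 was at 5.44 and 4.24 with the mutant and at 4.40 and 4.36 with the vector. DNAJC17 was at 6.61 and 6.19 with the mutant and at 5.71 and 6.86 with the vector. DNAJC1, partner of HSPA5, was at 11.03 and 10.32 with the mutant and at 10.68 and 10.41 with the vector.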
